A study of Mus musculus with 32 samples.

Results

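Class II genes of the major histocompatibility complex (MHC) were followed through RNA-seq of mouse embryonic kidneys that expressed tumor-derived mutants of the chromatin reader ENL. The 7 members were taken by name from the class II presentation machinery: the chain genes H2-Aa, H2-Ab1 and H2-Eb1, the invariant chain gene Cd74, the coactivator gene Ciita, and the peptide exchange genes H2-DMa and H2-DMb1. All 7 were found among the 54417 genes that the 4 count tables hold in common. They were chosen for their function, although earlier results of the same libraries were known when they were chosen.

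MHC class II molecules are pairs of an alpha and a beta chain that carry peptides from engulfed proteins to the cell surface, where CD4+ T cells read them. H2-Aa and H2-Ab1 encode the chains of I-A, while H2-Eb1 encodes the beta chain of I-E, whose alpha chain gene is broken in C57BL/6 mice. The invariant chain, the product of Cd74, fills the groove until the molecule reaches the endosome, and the H2-DM dimer then swaps its last fragment for a peptide. CIITA binds no DNA itself and switches the group on through factors that sit on the X and Y boxes of each promoter. In the kidney the genes are best known from dendritic cells and macrophages, and interferon gamma can also induce them in tubular epithelium.

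On the mouse build GRCm38, 5 of the members lie close together in the MHC on chromosome 17. H2-DMa lies at chr17:34119541-34139101 and H2-DMb1 at chr17:34153072-34160230, both on the forward strand. H2-Ab1 lies at chr17:34257689-34269419 on the forward strand, H2-Aa at chr17:34282744-34287823 on the reverse strand, and H2-Eb1 at chr17:34305867-34316674 on the forward strand. Cd74 lies at chr18:60803848-60812652 and Ciita at chr16:10480059-10528418, both on the forward strand. Mllt1, the gene that encodes ENL and carries the knock-in alleles, is also on chromosome 17, 22.6 Mb from H2-Aa. Of the 50-base stretches of the H2-DMb1 transcripts, 22.7% also occur in the neighbouring H2-DMb2, and 8.43% of those of H2-DMa occur in Brd2, so reads of these pairs could have been divided between the genes.

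All groups came from C57BL/6J crosses. In the Six2 experiments every embryo, controls included, was Six2-TGCtg/+, a bacterial artificial chromosome transgene that drives Cre in nephron progenitors and is itself known to misexpress Six3 there. The ENL-WT controls were Enl+/+, and the mutants carried 1 conditional knock-in copy, either EnlT1/+, an in-frame insertion in the YEATS domain, or EnlT3/+, an in-frame deletion with a substitution in the same domain. The copy is read as wild type until Cre recombines it, so in whole kidneys only progenitors and their descendants express the mutant. In the Foxd1 experiments every embryo was Foxd1GC/+, a Cre knock-in that also inactivates 1 copy of Foxd1, with Enl+/+ or EnlT1/+, and Cre acts in the stromal lineage. Whole kidneys were taken late in gestation, at E18.5, with 2 Six2 libraries per genotype (ENL-WT, ENL-T1, ENL-T3) and 3 libraries each of Foxd1-ENL-WT and Foxd1-ENL-T1. Cells that carried the Cre reporter LSL-tdT and fluoresced red (tdT+) were sorted from Six2 kidneys at E14.5 and at E18.5, with 3 ENL-WT and 3 ENL-T1 libraries at each stage, and from Foxd1 kidneys at E18.5, with 4 and 4. The gate used tdT and a viability dye and no antibody against leukocytes is named for it. The E14.5 kidneys were dissociated with trypsin and the E18.5 kidneys with collagenase, so stage and dissociation cannot be told apart. Nothing in the labels ties a library to 1 embryo, so p-values measure the spread between these libraries.

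The promoter stretches below are shown because class II genes are known for the X and Y box layout through which CIITA acts. In the RefSeq promoter table for GRCm38.p6, which spans 250 bases before to 50 bases after each start, 4 of the 7 members had an entry. H2-Ab1, Cd74 and Ciita are named only. The search, on both strands, was for the X box core AGNAAC followed 20 to 40 bases later by the Y box ATTGG, and the capitals mark these parts.
H2-Eb1, chr17:34305769-34305818, forward strand: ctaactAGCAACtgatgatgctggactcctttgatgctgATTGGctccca
H2-DMb1, chr17:34153090-34153140, forward strand: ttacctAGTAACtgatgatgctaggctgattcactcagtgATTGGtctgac
H2-Aa, chr17:34287861-34287910, reverse strand: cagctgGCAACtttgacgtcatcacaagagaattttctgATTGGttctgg
In H2-Eb1 and H2-DMb1, 27 and 28 bases separated the 2 boxes, and the first base of the X core stood 92 and 95 bases before the start. H2-Aa lacked the leading A and matched only the shorter core GNAAC, a form chosen after the sequences were seen, with 28 bases between the boxes and the core 81 bases before the start. Neither H2-DMa entry held either pair. Of the class II genes outside the members, H2-Oa, H2-Ob and H2-Eb2 held the full pair and H2-DMb2 held neither pair. Of 32544 promoters in the table, 1.14% held the full pair, 3.42% held the pair with the shorter core, and 37.4% held ATTGG with or without it. A match describes letters in this window and no binding was measured.

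The libraries held 67137194 to 157266455 counts, apart from the sorted Foxd1 libraries with 2557443 to 3508381, so levels of rare genes were least certain there. In the text, levels are normalised counts-per-million values (CPM), scaled by trimmed means within an experiment. The sorted Six2 libraries carried nephron lineage markers at a summed level of 680.2 CPM or more in every library, and the sorted Foxd1 libraries carried stromal markers at 6151 CPM or more. Macrophage transcripts were still detected after sorting, and 12 markers summed to 22.9 to 133 CPM in sorted Six2 libraries and to 153 to 446 CPM in sorted Foxd1 libraries. The markers shared unevenly in this sum. In sorted Six2-ENL-WT cells at E18.5, Csf1r stood at 12.2 to 17.1 CPM and Cd68 at 11.4 to 15.1 CPM. C1qa stood there at 0.909 to 1.27 CPM, Adgre1 at 0.556 to 1.02 and Cx3cr1 at 0.341 to 0.713. Which cells expressed Csf1r and Cd68 was not tested. Dendritic cells could not be followed by their own list, because Zbtb46 made up 61.7% to 97.2% of its summed level. Zbtb46 stood at 94.2 to 106 CPM in sorted Six2-ENL-WT cells at E14.5, where 5 endothelial markers summed to 6.42 to 7.54 CPM. In Six2-ENL-WT whole kidney it stood at 35.7 to 36.1 CPM, with endothelial sums of 828 to 846 CPM. Which cells expressed it was not tested. T and NK cell markers summed to no more than 0.364 CPM in any whole kidney library. The sex-linked transcripts were unevenly spread in the Six2 whole kidneys, where both ENL-T1 libraries held Ddx3y, both ENL-T3 libraries held Xist, and the ENL-WT group had 1 library of each kind. In sorted Six2 cells at E14.5, ENL-T1 replicates 1 and 2 and ENL-WT replicate 1 held Ddx3y, and the others held Xist. At E18.5 replicate 1 of each genotype held Ddx3y. All Foxd1 whole kidney libraries held Xist, and all sorted Foxd1 libraries held Ddx3y.

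In the ENL-WT libraries the class II genes were expressed at low levels, and the members kept no single order. Per kilobase of exon, in Six2-ENL-WT whole kidney, H2-DMb1 stood at 3.87 ± 0.448 and H2-Ab1 at 3.61 ± 0.296 CPM per kb (SD, n = 2), while Cd74 stood at 2.57 ± 0.219 and H2-Eb1 at 1.85 ± 0.106. H2-Aa, the partner of H2-Ab1, was at only 0.517 ± 0.0127, and Ciita was lowest at 0.185 ± 0.00212 CPM per kb. In the sorted Six2 cells at E14.5, H2-Ab1 led all members at 10.3 ± 1.55 CPM per kb (SD, n = 3), with H2-Aa at 0.590 ± 0.0340. In sorted stroma Cd74 led instead, at 12.1 ± 7.39 CPM per kb (SD, n = 4).

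The tables were scaled separately, so the order of experiments for a gene is a description. H2-Aa was highest in sorted stroma at 6.66 ± 3.87 CPM (SD, n = 4), above every library of the other 4 ENL-WT groups. Those groups overlapped with their neighbours in the order, from 2.24 ± 0.129 CPM in sorted Six2 cells at E14.5 to 1.92 ± 0.0634 CPM in sorted Six2 cells at E18.5. Cd74 was also highest in sorted stroma, at 20.3 ± 12.4 CPM, then in Foxd1 whole kidney at 6.00 ± 1.01 CPM, and these 2 groups were apart from each other and from the rest, which ran from 4.31 ± 0.367 CPM in Six2 whole kidney down to 3.06 ± 0.423 CPM in sorted Six2 cells at E18.5.

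Ciita ran the other way and was lowest in sorted stroma, at 0.834 ± 0.541 CPM on 1 to 5 counts a library. Its other groups overlapped with their neighbours, from 3.23 ± 0.896 CPM in sorted Six2 cells at E14.5 to 1.76 ± 0.0202 CPM in Six2 whole kidney. H2-Ab1 was highest in sorted Six2 cells at E14.5, at 26.5 ± 3.98 CPM, and lowest in Six2 whole kidney, at 9.26 ± 0.762 CPM, with every pair of neighbours overlapping. H2-Eb1, from 6.43 ± 0.648 CPM in Foxd1 whole kidney to 3.60 ± 0.207 in Six2 whole kidney, and H2-DMb1, from 7.47 ± 0.103 CPM in sorted Six2 cells at E18.5 to 4.89 ± 1.22 in sorted stroma, likewise had no neighbours apart. H2-DMa ran from 8.88 ± 2.83 CPM in sorted stroma to 5.05 ± 0.367 in sorted Six2 cells at E18.5, with 1 gap, below Foxd1 whole kidney at 6.87 ± 0.570 CPM.

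**Figure D1:**
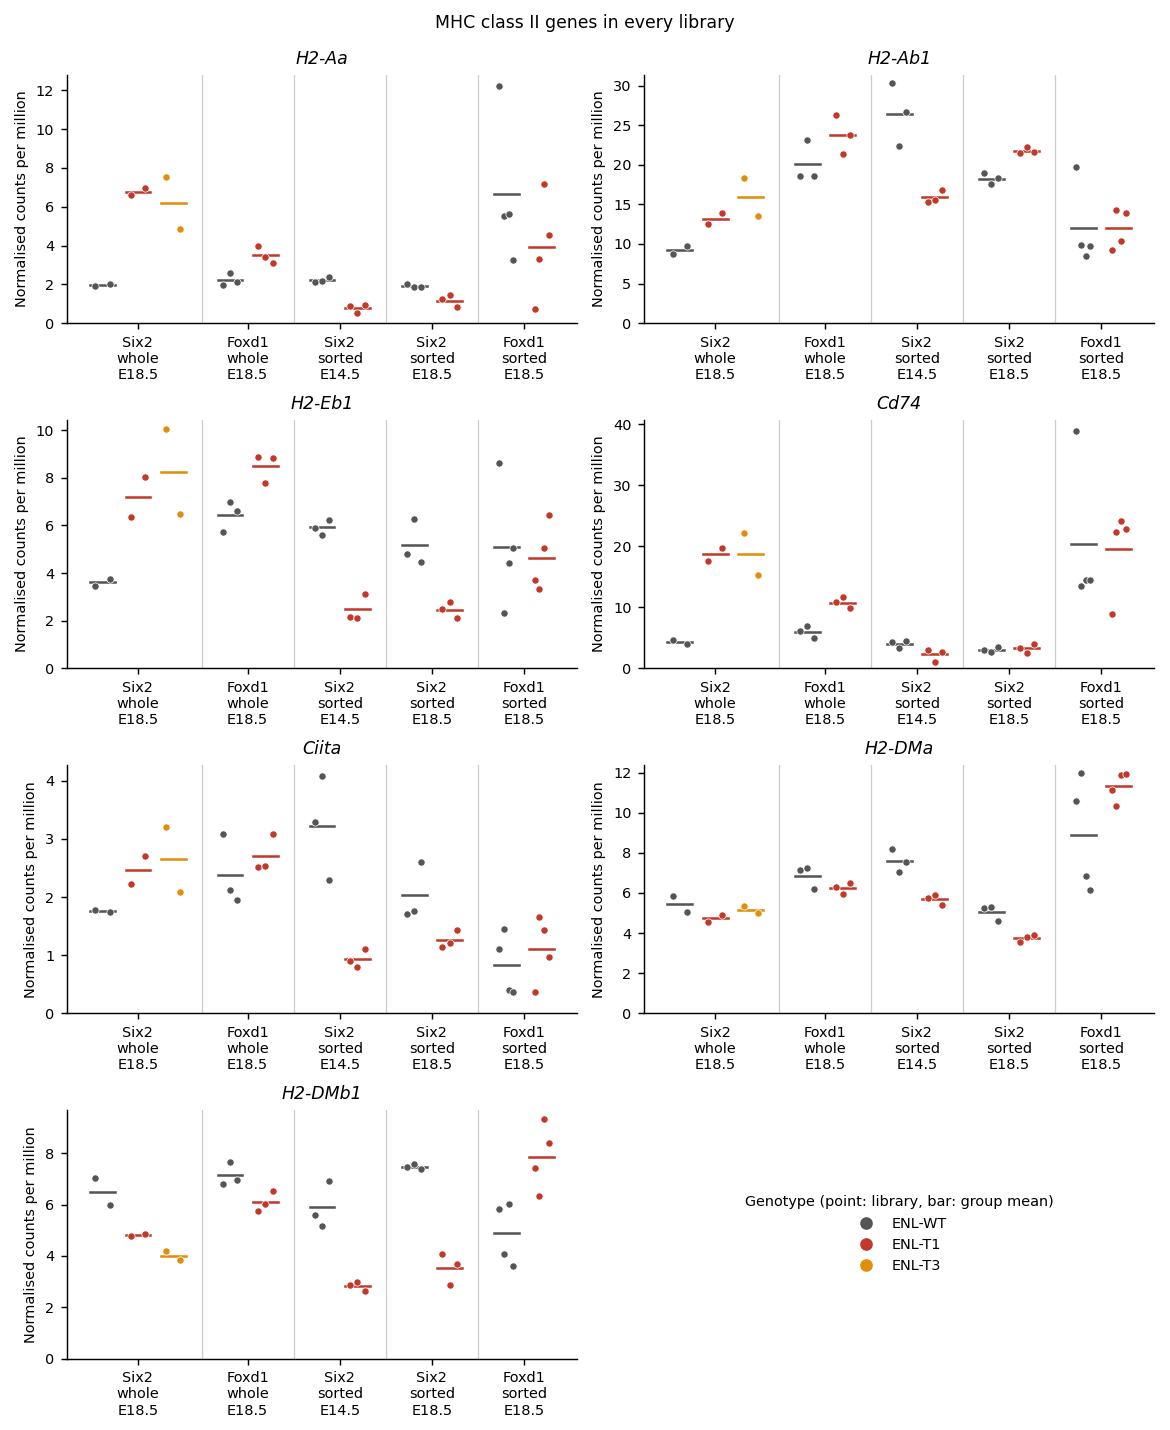
Normalised CPM of the 7 class II genes (y axis, linear and starting at 0) in each library (points) of the 5 experiments (x axis), with bars at the group means and colors for ENL genotype. H2-Aa and Cd74 are higher in mutant than in ENL-WT whole kidneys, and H2-Eb1 and H2-DMb1 are lower in mutant sorted Six2 cells at both stages. Sorted stroma shows the widest spread for every member except Ciita, with Cd74 at 38.9 CPM in 1 ENL-WT library.

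Six2 whole kidneys at E18.5 were compared to ask what expression of mutant ENL in the nephrogenic lineage does to the organ as a whole. Of the 7 members, 3 rose in Six2-ENL-T1 kidneys, Cd74, H2-Aa and H2-Eb1, where 2.88% of 23931 genes tested were called higher and 4.88% lower. In Six2-ENL-T3 kidneys 4 rose, H2-Ab1 being added, and H2-DMb1 fell, where 4.34% of genes were called higher and 5.28% lower. A call required an adjusted p under 0.05 in edgeR's quasi-likelihood test, adjusted by Benjamini and Hochberg over all genes tested, and a change of more than 1.5-fold.

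Cd74 stood at 4.57 and 4.05 CPM in the ENL-WT kidneys, at 17.6 and 19.8 in ENL-T1 and at 22.1 and 15.4 in ENL-T3. Every mutant kidney was far above both controls. The level was 4.33-fold higher in ENL-T1 (log2 fold change 2.12 ± 0.18 SE, edgeR adjusted p = 0.000307) and 4.35-fold higher in ENL-T3 (2.12 ± 0.18, adjusted p = 0.00025).

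H2-Aa, the I-A alpha chain gene, gave 1.93 and 2.00 CPM in ENL-WT, 6.62 and 6.94 in ENL-T1 and 7.55 and 4.87 in ENL-T3. Mutants and controls did not overlap, and the 2 ENL-T3 libraries lay further apart than those of the other genotypes. It was 3.45-fold higher in ENL-T1 (log2 1.79 ± 0.20, edgeR adjusted p = 0.00111) and 3.16-fold higher in ENL-T3 (1.66 ± 0.20, adjusted p = 0.00133).

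H2-Eb1 gave 3.46 and 3.75 CPM in ENL-WT, 6.37 and 8.04 in ENL-T1 and 10.04 and 6.47 in ENL-T3, again without overlap between mutants and controls. Its log2 fold change was 1.00 ± 0.21 in ENL-T1 (edgeR adjusted p = 0.0189) and 1.20 ± 0.21 in ENL-T3 (adjusted p = 0.00792). The ENL-T1 call was lost when ENL-T1 replicate 2 was left out (0.83, adjusted p = 0.135) or ENL-WT replicate 1 (0.94, adjusted p = 0.0528).

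H2-Ab1, the I-A beta chain gene, started from a higher level and moved less, with 8.72 and 9.80 CPM in ENL-WT, 12.5 and 13.9 in ENL-T1 and 18.3 and 13.5 in ENL-T3. Every mutant library lay above both controls. The ENL-T3 difference was called, at log2 0.78 ± 0.15 (edgeR adjusted p = 0.0108), but at 0.55 it passed no fold threshold without ENL-T3 replicate 1. The ENL-T1 difference of 0.51 ± 0.15 was not called (adjusted p = 0.0628).

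Ciita was at 1.77 and 1.75 CPM in ENL-WT, 2.23 and 2.72 in ENL-T1 and 3.21 and 2.09 in ENL-T3. Mutants and controls did not overlap, but neither difference passed the test, at log2 0.49 ± 0.23 (edgeR adjusted p = 0.225) and 0.59 ± 0.23 (adjusted p = 0.124). The ENL-T3 difference was called at 0.87 (adjusted p = 0.047) when ENL-T3 replicate 2 was left out. With all libraries it was also called in edgeR without a low-count filter (0.59, adjusted p = 0.0191).

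H2-DMb1, the DM beta chain gene, was at 7.04 and 5.97 CPM in ENL-WT, 4.77 and 4.85 in ENL-T1 and 4.18 and 3.83 in ENL-T3, so all mutant libraries were below the controls. It fell in ENL-T3 (log2 -0.70 ± 0.12, edgeR adjusted p = 0.00773), and the call was lost without ENL-T3 replicate 2 (-0.63, adjusted p = 0.0575) and without ENL-WT replicate 1 (-0.57, under the fold threshold). In ENL-T1 the log2 difference was -0.43 ± 0.12 (adjusted p = 0.0562). H2-DMa, the alpha chain gene of the same dimer, stayed between 4.57 and 5.85 CPM in all 6 libraries, with log2 differences of -0.20 ± 0.12 in ENL-T1 (adjusted p = 0.361) and -0.08 ± 0.12 in ENL-T3 (adjusted p = 0.729).

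The 2 mutants were not told apart at these genes. In Six2-ENL-T3 against Six2-ENL-T1 kidneys edgeR called 0 of 7 members, 0 members had an unadjusted p under 0.05, and edgeR's exact test and DESeq2 also called 0, where 0.00418% of all genes were called. The differences ran from -0.26 for H2-DMb1 to 0.27 for H2-Ab1 on the log2 scale, with adjusted p between 0.728 and 0.997. The ENL-T1 and ENL-T3 comparisons used the same 2 control kidneys, so their likeness rests in part on those. Both ENL-T1 libraries held Ddx3y and both ENL-T3 libraries held Xist, so mutation and sex cannot be told apart in ENL-T3 against ENL-T1.

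Markers of several cell types moved in the same kidneys. Of the 12 macrophage markers, 8 rose in each mutant, and their summed level was 166 and 167 CPM in ENL-WT, 230.3 and 255 in ENL-T1 and 271 and 244 in ENL-T3. Of 6 pan-leukocyte markers, 4 rose in each mutant, as did 1 of 4 tested B cell markers, while edgeR called 0 of 4 monocyte and neutrophil markers, with 2 at an unadjusted p under 0.05 in ENL-T1 and 3 in ENL-T3. Nephron lineage markers fell in the same kidneys, 5 of 8 in ENL-T1 and 6 of 8 in ENL-T3, from sums of 1161 and 1317 CPM in ENL-WT to 418 to 495 CPM in the mutants, and of 4 ureteric markers 2 fell in ENL-T1 and 4 in ENL-T3. The part of these markers in the class II result was not tested, and in whole tissue a change in the number of expressing cells and a change in RNA per cell cannot be told apart.

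The rest of the pathway moved unevenly in the Six2 whole kidneys. Ctss, the endosomal protease that trims the invariant chain, rose in ENL-T1 (log2 0.60, edgeR adjusted p = 0.0277) and in ENL-T3 (0.65, adjusted p = 0.0178), while Lgmn, the endosomal asparaginyl protease, fell in both (-0.71, adjusted p = 0.0146, and -0.86, adjusted p = 0.00554). None of the 7 genes for the factors on the X and Y boxes, Rfx5, Rfxap, Rfxank, Nfya, Nfyb, Nfyc and Creb1, was called by edgeR in either mutant, though 4 had an unadjusted p under 0.05 in ENL-T1 and 3 in ENL-T3. Of H2-DMb2, H2-Oa, H2-Ob, H2-Eb2, H2-Ea and H2-Ea-ps, 4 were tested and none was called, with 2 and 1 at an unadjusted p under 0.05. The costimulator gene Cd86 rose in ENL-T3 (0.82, adjusted p = 0.0132) and was not called in ENL-T1 (0.54, adjusted p = 0.0734).

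Class I and interferon genes were read beside them, since both respond to interferon gamma. Of 9 class I pathway genes, 2 rose in each mutant. These were H2-K1, a class I heavy chain gene, at log2 0.66 in ENL-T1 (edgeR adjusted p = 0.0261) and 0.73 in ENL-T3 (adjusted p = 0.0147), and Nlrc5, the class I coactivator and relative of CIITA, at 1.05 (adjusted p = 0.0279) and 1.27 (adjusted p = 0.0112). Of the 12 interferon gamma response genes tested, from a list of 13, 2 rose in ENL-T1 and 3 in ENL-T3. Ifng, the interferon gamma gene itself, was on the list. It held 0 counts in every library of every group except Six2-ENL-T3 whole kidney. The chemokine gene Cxcl10 rose most, by 3.90 (adjusted p = 4.82e-05) and 3.34 (adjusted p = 6.6e-05), beside the GTPase gene Gbp2 at 0.89 (adjusted p = 0.0474) and 0.95 (adjusted p = 0.0325), and the feedback inhibitor Socs1 was called in ENL-T3 at 0.91 (adjusted p = 0.00517).

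**Figure D2:**
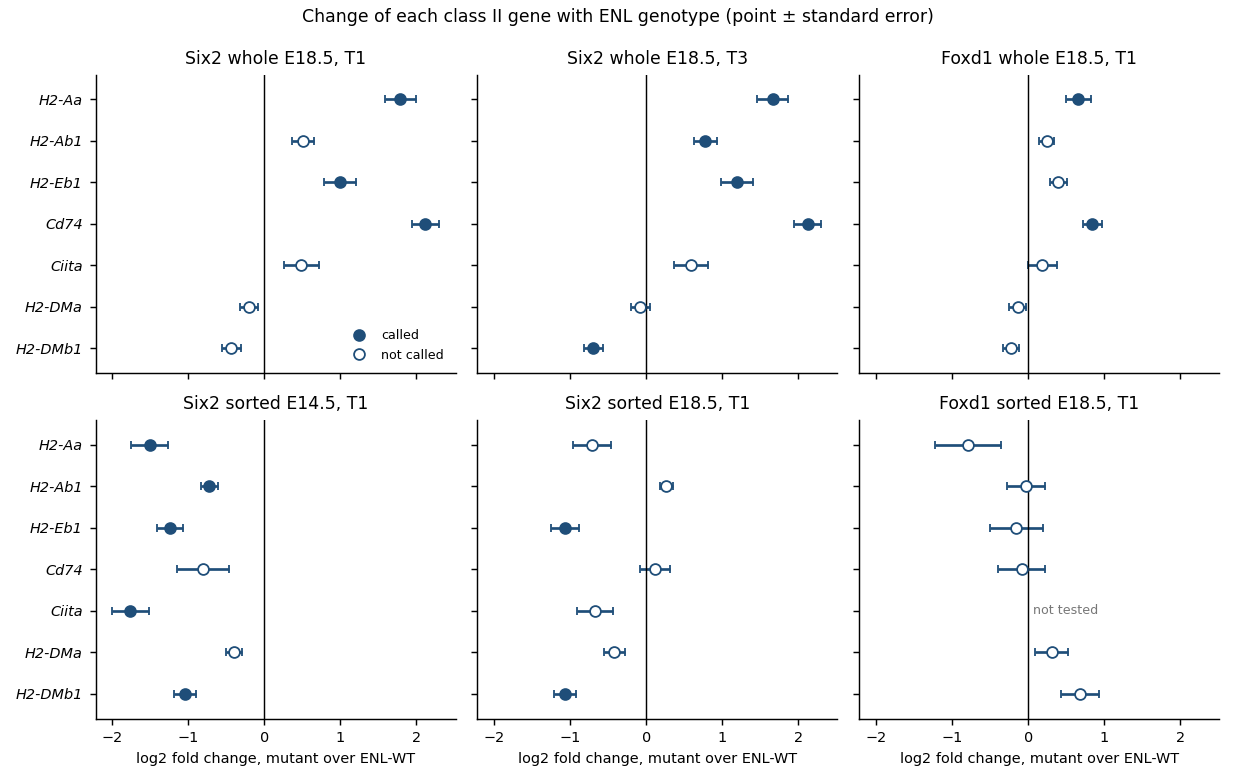
Log2 fold change of each class II gene in mutant over ENL-WT libraries (x axis, points with standard errors from edgeR) in the 6 genotype comparisons (panels), filled where the change was called. Chains and Cd74 lie right of 0 in whole kidneys and the chains, apart from H2-Ab1 at E18.5, lie left of 0 in sorted Six2 cells, while no gene is filled in sorted Foxd1 cells, where Ciita was not tested.

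In Foxd1 whole kidneys at E18.5, where the mutant is expressed in stroma, Cd74 and H2-Aa again rose, by less than in the Six2 kidneys. The call was made for 2 of 7 members where 2.65% of 20145 genes were called higher. Cd74 was at 6.07, 6.98 and 4.95 CPM in ENL-WT and at 10.9, 11.6 and 9.82 in ENL-T1, and H2-Aa was at 1.95, 2.58 and 2.102 CPM in ENL-WT and at 3.97, 3.39 and 3.12 in ENL-T1. The groups were apart for both genes. Cd74 was 1.79-fold higher (log2 0.84 ± 0.13, edgeR adjusted p = 0.000222), and H2-Aa was 1.58-fold higher (0.66 ± 0.16, adjusted p = 0.00773). The H2-Aa call sat close to the fold threshold and was lost without ENL-T1 replicate 1 (0.56) and without ENL-WT replicate 1 (0.57), which left 1 called member.

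H2-Eb1 was at 5.71, 6.97 and 6.61 CPM in Foxd1-ENL-WT and at 8.85, 7.77 and 8.81 in Foxd1-ENL-T1, a difference of 0.40 ± 0.11 on the log2 scale that passed the adjusted p (edgeR, 0.0143) but not the fold threshold. The groups did not overlap. The other members spanned 18.6 to 26.3 CPM for H2-Ab1, 1.95 to 3.09 for Ciita, 5.93 to 7.25 for H2-DMa and 5.75 to 7.64 for H2-DMb1 over both genotypes. Their log2 differences were 0.24 (adjusted p = 0.0676), 0.18 (0.494), -0.14 (0.357) and -0.23 (0.121), none of them called, and H2-DMb1 was lower in every ENL-T1 library.

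The difference between the lineages was itself tested in whole kidneys by an interaction term in 1 edgeR fit over both experiments, which were sequenced with different read lengths. The ENL-T1 change was larger under Six2-Cre than under Foxd1-Cre for Cd74, by 1.29 ± 0.19 on the log2 scale (adjusted p = 0.000854), and for H2-Aa, by 1.15 ± 0.22 (adjusted p = 0.00615). These were 2 of 7 members where 3.61% of 22686 genes were called in that direction. For H2-Eb1 the difference of changes was 0.62 ± 0.19 (adjusted p = 0.0664), and for the other 4 members it lay between -0.19 and 0.32 and was not called. H2-Eb1 was called with DESeq2 (0.60, adjusted p = 0.027). In edgeR it was called with library size alone as scaling (0.66, adjusted p = 0.0429) and without a low-count filter (0.63, adjusted p = 0.0245). Lineage and experiment cannot be told apart in this comparison. The sex-linked transcripts were not balanced in it either, since all Foxd1 libraries held Xist and both Six2-ENL-T1 libraries held Ddx3y.

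Of the 12 macrophage markers edgeR called 0 in Foxd1-ENL-T1 whole kidneys, although 8 had an unadjusted p under 0.05, with a median log2 difference of 0.28. Their summed level was 152 to 168 CPM in ENL-WT and 169 to 175 CPM in ENL-T1. Of these 12 markers 10 had a positive and 2 a negative difference, and of the 8 with a low unadjusted p, Csf1r (-0.34) and Lyz2 (-0.20) were the negative ones. Of 4 monocyte and neutrophil markers 3 fell, Ccr2, S100a8 and S100a9, with sums of 7.91 to 9.33 CPM in ENL-WT and 4.25 to 4.75 CPM in ENL-T1. Ureteric markers had 1 of 4 higher and 2 lower, nephron lineage markers had 1 of 8 higher and 2 lower, and their part and that of the leukocyte markers in the class II result was not tested. Cxcl10 was the 1 interferon gamma response gene called (log2 2.42, edgeR adjusted p = 4.96e-06), and no class I, promoter factor or antigen processing gene was called, with 2, 4 and 1 of them at an unadjusted p under 0.05.

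Sorted tdT+ cells of the Six2 kidneys were compared to follow the mutant in the lineage that expresses it. At E14.5, 5 of 7 members fell in ENL-T1 cells, Ciita, H2-Aa, H2-Eb1, H2-DMb1 and H2-Ab1, where 2.28% of 22387 genes were called lower. For all 7 members, every ENL-T1 library lay below every ENL-WT library, but the share of all genes apart in this way was not counted. The count of 5 calls held whichever library was left out.

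Ciita was at 3.30, 4.09 and 2.30 CPM in ENL-WT cells and at 0.910, 0.802 and 1.11 in ENL-T1 cells. It was 3.39-fold lower, the largest log2 change among the members (-1.76 ± 0.24, edgeR adjusted p = 0.0027). H2-Aa was at 2.14, 2.20 and 2.38 CPM in ENL-WT and at 0.874, 0.515 and 0.941 in ENL-T1, or 2.84-fold lower (-1.51 ± 0.25, adjusted p = 0.00561). The groups were apart for both genes, with the wider spread for Ciita in ENL-WT.

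H2-Eb1 was at 5.90, 5.61 and 6.24 CPM in ENL-WT and at 2.15, 2.13 and 3.14 in ENL-T1 (log2 -1.24 ± 0.17, edgeR adjusted p = 0.00264). H2-DMb1 was at 5.59, 5.15 and 6.92 CPM in ENL-WT and at 2.86, 2.99 and 2.63 in ENL-T1 (-1.04 ± 0.14, adjusted p = 0.00268). H2-DMb2, which shares sequence with it, differed by -0.58 and was not called (adjusted p = 0.107).

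H2-Ab1 was at 30.3, 22.4 and 26.7 CPM in ENL-WT and at 15.3, 15.6 and 16.8 in ENL-T1, a 1.65-fold lower level (log2 -0.72 ± 0.11, edgeR adjusted p = 0.0047). H2-DMa passed the adjusted p at 0.0382 but not the fold threshold (-0.40 ± 0.10), with 7.06 to 8.17 CPM in ENL-WT and 5.41 to 5.91 in ENL-T1. Cd74, the member that changed most in whole kidneys, was at 4.39, 3.30 and 4.49 CPM in ENL-WT and at 3.07, 1.08 and 2.74 in ENL-T1 and was not called (-0.80 ± 0.34, adjusted p = 0.181). Its lowest library, ENL-T1 replicate 2, set much of that spread.

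At E14.5 the macrophage markers gave no call beside the class II genes. They summed to 22.9, 35.2 and 118 CPM in ENL-WT and to 49.6, 52.8 and 102 CPM in ENL-T1, and edgeR called 0 of 12, with 0 at an unadjusted p under 0.05. The dendritic cell genes Cd209a and Clec9a were at 0 counts in all 3 ENL-WT libraries, as was the B cell gene Ms4a1. Of 7 stromal markers 5 rose and 1 fell in these ENL-T1 cells, where 4.11% of all genes rose, 3 of 6 tested nephron lineage markers fell, and 1 of 2 tested B cell markers and 1 of 5 endothelial markers rose. Their part in the class II result was not tested. None of the promoter factor, antigen processing, costimulator, class I or interferon gamma response genes was called by edgeR at this stage, with 3, 1, 0, 4 and 3 of them at an unadjusted p under 0.05.

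At E18.5 the sorted Six2 cells kept part of this pattern. H2-Eb1 and H2-DMb1 fell, 2 of 7 members where 5.54% of 22685 genes were called lower. In every ENL-T1 library 5 members were lower than in any ENL-WT library, a separation that was not counted over all genes. H2-Eb1 was at 4.79, 6.29 and 4.44 CPM in ENL-WT and at 2.47, 2.78 and 2.104 in ENL-T1 (log2 -1.07 ± 0.18, edgeR adjusted p = 0.000891). H2-DMb1 was at 7.47, 7.57 and 7.37 CPM in ENL-WT and at 4.08, 2.88 and 3.68 in ENL-T1 (-1.07 ± 0.15, adjusted p = 0.000185). The levels were 2.099-fold and 2.096-fold lower.

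H2-Aa was at 2.00, 1.88 and 1.89 CPM in ENL-WT and at 1.23, 1.45 and 0.812 in ENL-T1, without overlap, and just missed the threshold (log2 -0.71 ± 0.25, edgeR adjusted p = 0.0637). Ciita was at 1.72, 1.76 and 2.61 CPM in ENL-WT and at 1.14, 1.22 and 1.44 in ENL-T1, also without overlap (-0.67 ± 0.24, adjusted p = 0.0682). Both were called by edgeR's exact test and by DESeq2, which made the count 4 of 7, and H2-Aa was called at -0.90 without ENL-T1 replicate 2 (adjusted p = 0.0457). H2-DMa, at 4.63 to 5.28 CPM in ENL-WT and 3.58 to 3.90 in ENL-T1, differed by -0.42 ± 0.14 (adjusted p = 0.0574).

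H2-Ab1 parted from its partner chain at this stage. It was at 19.0, 17.5 and 18.3 CPM in ENL-WT and at 21.5, 22.2 and 21.6 in ENL-T1, higher in every ENL-T1 library by a small amount that passed the adjusted p but not the fold threshold (log2 0.26 ± 0.09, edgeR adjusted p = 0.0476). Cd74 overlapped between the groups, at 2.65 to 3.49 CPM in ENL-WT and 2.56 to 4.01 in ENL-T1 (0.12 ± 0.20, adjusted p = 0.749).

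Leukocyte markers moved strongly at E18.5. Of the 12 macrophage markers 10 rose, where 6.14% of genes were called higher, and their sum was 40.5 to 42.8 CPM in ENL-WT and 116 to 133 CPM in ENL-T1. All 6 pan-leukocyte markers rose, from sums of 5.51 to 6.56 CPM to sums of 21.7 to 28.8 CPM, and red cell markers summed to 80.1 to 158 CPM in ENL-WT and 1161 to 1712 CPM in ENL-T1. Of 7 stromal markers 4 rose and 2 fell, with sums of 325 to 557 CPM in ENL-WT and 789 to 910.2 CPM in ENL-T1. Of 8 nephron lineage markers 6 fell and 1 rose, with sums of 1621 to 1681 CPM and 902 to 929 CPM, and of 4 ureteric markers 2 fell. The part of these markers in the class II levels was not tested.

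The rest of the pathway was divided in the same libraries, and of 5 antigen processing genes 1 rose and 1 fell. Ctss rose by 2.39 on the log2 scale (edgeR adjusted p = 1.5e-07), and the costimulator genes Cd86 and Cd40 rose by 2.78 (adjusted p = 1.45e-05) and 1.32 (adjusted p = 0.0127). March1, the ubiquitin ligase that removes class II from the surface, fell by 0.63 (adjusted p = 0.0483), and Lgmn passed the adjusted p but not the fold threshold at -0.36 (adjusted p = 0.0028). H2-Eb2, a second beta chain gene, rose by 1.21 (adjusted p = 0.0401). Of the class I genes 5 of 9 rose, with Nlrc5 at 1.59 (adjusted p = 0.00753) and the heavy chain gene H2-D1 at 0.59 (adjusted p = 0.00474), whereas 0 of 11 interferon gamma response genes and 0 of 7 promoter factor genes were called, with 4 and 3 at an unadjusted p under 0.05.

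The change from E14.5 to E18.5 in the ENL-T1 effect was tested with an interaction term in 1 edgeR fit. Of the 7 members only H2-Ab1 passed in that fit, where 3.94% of 25222 genes were called in the same direction. Its log2 fold change was higher at E18.5 than at E14.5 by 0.99 ± 0.14 (adjusted p = 0.000618). For Ciita the difference was 1.10 ± 0.36 (adjusted p = 0.0815), for Cd74 0.93 ± 0.43 (adjusted p = 0.227) and for H2-Aa 0.80 ± 0.37 (adjusted p = 0.22). Ciita passed without E14.5 ENL-WT replicate 3 (1.29, adjusted p = 0.033) and with DESeq2 (1.06, adjusted p = 0.0438), which made the count 2. H2-Eb1 differed by 0.18 ± 0.27 and H2-DMa and H2-DMb1 by -0.01 ± 0.16 and -0.02 ± 0.22, and none of these was called. Stage and dissociation cannot be told apart in this fit.

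The same cells without the mutation were compared between the stages, which were also dissociated differently, so stage and dissociation cannot be told apart. In ENL-WT cells 0 of 7 members were called between E14.5 and E18.5 by edgeR, its exact test or DESeq2 at an adjusted p under 0.01 and a change of over 2-fold, where 24.8% of genes were called higher at E18.5 and 20.6% lower, and 4 members had an unadjusted p under 0.05. H2-Ab1 and H2-DMa passed the adjusted p but not the fold, at log2 -0.53 ± 0.10 (adjusted p = 0.00022) and -0.59 ± 0.12 (adjusted p = 0.000409). Ciita differed by -0.67 ± 0.25 (adjusted p = 0.0259), Cd74 by -0.41 ± 0.31 (adjusted p = 0.241) and H2-DMb1 by 0.34 ± 0.15 (adjusted p = 0.0559). Around them 4 of 5 antigen processing genes were higher at E18.5, Ctsl, Ifi30, Lgmn and March1, by 1.84, 1.36, 1.64 and 3.02. Of the 7 promoter factor genes 3 fell and 1 rose. Rfxap, a subunit of the X box factor, fell by 1.56, the Y box factor genes Nfyb and Nfyc fell by 1.44 and 1.38, and their partner Nfya rose by 2.89. The costimulator gene Cd40 fell by 1.67. Of the 12 macrophage markers 2 rose and 6 fell.

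In sorted Foxd1 cells none of the 6 members tested was called by edgeR's quasi-likelihood test, its exact test or DESeq2, and 1 had an unadjusted p under 0.05. In this comparison 3.66% of 12717 genes were called higher and 2.17% lower. Ciita, with 4, 5, 1 and 1 counts in the ENL-WT libraries and 1, 5, 4 and 3 in the ENL-T1 libraries, was too low to be tested.

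In stroma the groups of H2-DMb1 did not overlap, at 5.83, 4.08, 6.03 and 3.62 CPM in ENL-WT and at 7.41, 6.32, 9.35 and 8.39 in ENL-T1. The ENL-T1 level was the higher, by 0.68 ± 0.25 on the log2 scale (edgeR unadjusted p = 0.0127, adjusted p = 0.0898). H2-DMa was at 10.6, 11.96, 6.84 and 6.15 CPM in ENL-WT and at 11.1, 10.3, 11.9 and 11.9 in ENL-T1 (0.31 ± 0.22, adjusted p = 0.416). The ENL-WT libraries spread over nearly the whole range of this gene.

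The chain genes and Cd74 were scattered in stroma. H2-Aa was at 12.2, 5.54, 5.63 and 3.26 CPM in ENL-WT, on 44, 19, 14 and 9 counts, and at 0.741, 3.33, 7.19 and 4.52 CPM in ENL-T1, on 2, 10, 20 and 14 counts (log2 -0.79 ± 0.44, edgeR adjusted p = 0.292). Cd74 was at 38.9, 13.4, 14.47 and 14.47 CPM in ENL-WT and at 8.90, 22.3, 24.1 and 22.9 in ENL-T1 (-0.09 ± 0.32, adjusted p = 0.905). H2-Ab1, at 8.44 to 19.7 CPM, and H2-Eb1, at 2.33 to 8.61 CPM, over both genotypes, differed by -0.03 ± 0.25 (adjusted p = 0.963) and -0.15 ± 0.35 (adjusted p = 0.842).

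ENL-WT replicate 1 was the highest library of its group for H2-Aa, H2-Ab1, H2-Eb1 and Cd74, and ENL-T1 replicate 1 was the lowest of its group for H2-Aa, H2-Ab1 and Cd74. Without that ENL-WT library the differences became 0.35 for H2-Ab1, 0.28 for H2-Eb1 and 0.48 for Cd74, still not called. The macrophage markers summed to 385 CPM in ENL-WT replicate 1, to 214, 240 and 153 CPM in the others and to 323 to 446 CPM in the ENL-T1 libraries, and 7 of 12 were called higher in ENL-T1. Of the stromal markers 2 of 7 fell and of the nephron lineage markers 2 of 8 fell, and monocyte and neutrophil markers summed to 21.0 to 104 CPM in ENL-WT and 6.32 to 47.5 CPM in ENL-T1. Their part in these levels was not tested.

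The ENL-T1 effect on H2-DMb1 differed between sorted lineages at E18.5. It was lower in Six2 than in Foxd1 cells by 1.73 on the log2 scale, from -1.07 in the one to 0.68 in the other (interaction -1.73 ± 0.28, edgeR adjusted p = 0.000161), 1 of 6 members tested where 8.25% of 14869 genes were called in that direction. H2-DMa went the same way at -0.71 ± 0.26 (adjusted p = 0.0672) and H2-Eb1 at -0.90 ± 0.42 (adjusted p = 0.167). Without Foxd1-ENL-WT replicate 1 H2-Eb1 was called as well (-1.31, adjusted p = 0.0322), and without replicate 2 H2-DMa was (-0.87, adjusted p = 0.0298). The sorted Foxd1 libraries were far shallower than the sorted Six2 libraries, and depth and lineage cannot be told apart. All sorted Foxd1 libraries held Ddx3y, while the sorted Six2 libraries at E18.5 held Ddx3y or Xist.

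Because the members did not move together, their balance was read as a ratio of CPM per kb within each library, given as a description with no test. H2-Ab1 over H2-Aa, the 2 chains of I-A, was 6.69 to 7.26 in Six2-ENL-WT whole kidney, 2.80 to 2.96 in ENL-T1 and 3.59 to 4.09 in ENL-T3. In Foxd1 whole kidney it was 13.1 to 14.2 in ENL-WT and 9.33 to 11.3 in ENL-T1. The mutants of both lineages had lower ratios than every control of the same experiment.

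In sorted Six2 cells the same ratio was higher in the mutants. It was 15.1 to 21.0 in ENL-WT and 25.9 to 44.7 in ENL-T1 at E14.5, and 13.8 to 14.3 against 22.6 to 39.3 at E18.5. In sorted stroma it was 2.22 to 4.44 in ENL-WT and 2.15 to 18.49 in ENL-T1, and the groups overlapped. Per kb of merged exons H2-Ab1 thus exceeded H2-Aa in every library of every experiment, and in sorted Six2 cells by more in ENL-T1. Merged exon length is not transcript length, so the ratio does not count transcripts of either chain.

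Cd74 over H2-DMb1, the invariant chain against the factor that removes its last fragment, was 0.650 to 0.680 in Six2-ENL-WT whole kidney, 3.69 to 4.09 in ENL-T1 and 4.02 to 5.31 in ENL-T3. It was 0.713 to 0.914 in Foxd1-ENL-WT and 1.51 to 1.93 in Foxd1-ENL-T1 whole kidney. In all 4 ENL-WT groups other than sorted stroma H2-DMb1 exceeded Cd74 per length, and in every mutant whole kidney the order was turned.

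In sorted Six2 cells at E18.5 this ratio was 0.350 to 0.475 in ENL-WT and 0.822 to 1.09 in ENL-T1, without overlap, and at E14.5 it was 0.642 to 0.786 and 0.362 to 1.07, with overlap. Sorted stroma had 2.40 to 6.68 in ENL-WT and 1.20 to 3.53 in ENL-T1, also with overlap.

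**Figure D3:**
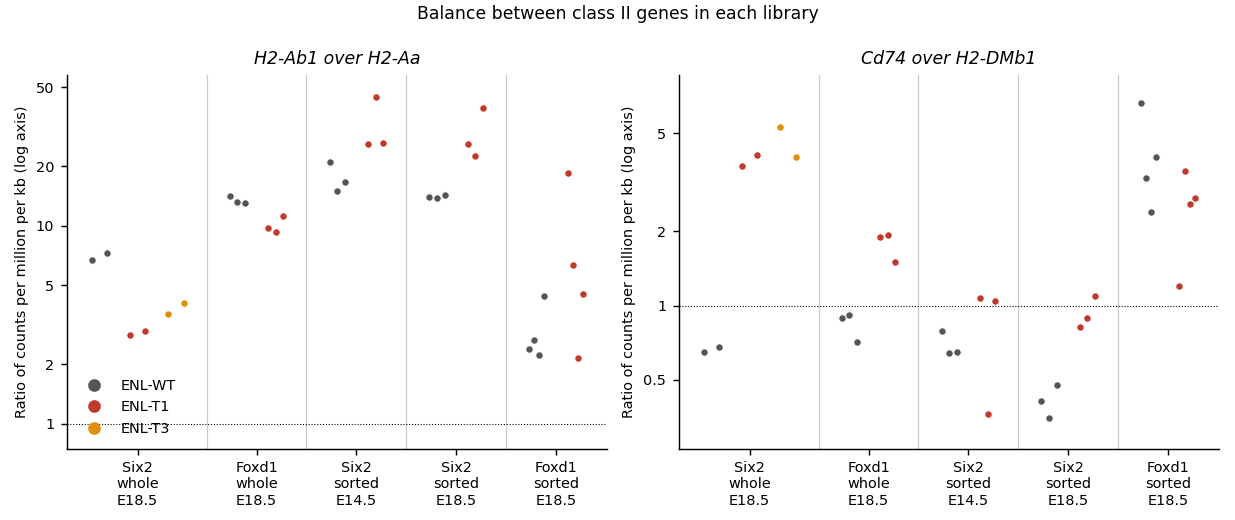
Ratio of the CPM per kb of 2 genes (y axis, log scale, dotted line at 1) in each library (points, colored by ENL genotype) of the 5 experiments (x axis), for H2-Ab1 over H2-Aa on the left and Cd74 over H2-DMb1 on the right. H2-Ab1 over H2-Aa is lower in mutant whole kidneys and higher in mutant sorted Six2 cells than in their controls, and Cd74 over H2-DMb1 is above 1 in every mutant whole kidney.

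Set against the macrophage markers library by library, the chains and Cd74 took different courses in the experiments. The summed level of H2-Aa, H2-Ab1, H2-Eb1 and Cd74 was 18.7 and 19.6 CPM in Six2-ENL-WT whole kidney and 40.2 to 58.1 CPM in the mutants, where the macrophage sum was also higher. In sorted Six2 cells at E18.5 the class II sum was 28.1 to 28.8 CPM in ENL-WT and 28.5 to 29.0 CPM in ENL-T1. The macrophage sums of these groups were apart. Most of the class II sum was H2-Ab1, with means of 18.3 CPM in ENL-WT and 21.8 CPM in ENL-T1. The means of H2-Eb1 were 5.17 and 2.45 CPM, and those of H2-Aa 1.92 and 1.165 CPM. At E14.5 the class II sum was 33.5 to 42.7 CPM in ENL-WT and 19.3 to 23.6 CPM in ENL-T1, and the macrophage sums of these groups overlapped. In Foxd1 whole kidney it was 32.3 to 39.6 CPM in ENL-WT and 44.1 to 49.9 CPM in ENL-T1. In sorted stroma it was 31.2 to 79.5 CPM in ENL-WT and 22.6 to 47.8 CPM in ENL-T1. The part of the macrophage markers in these sums was not tested.

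**Figure D4:**
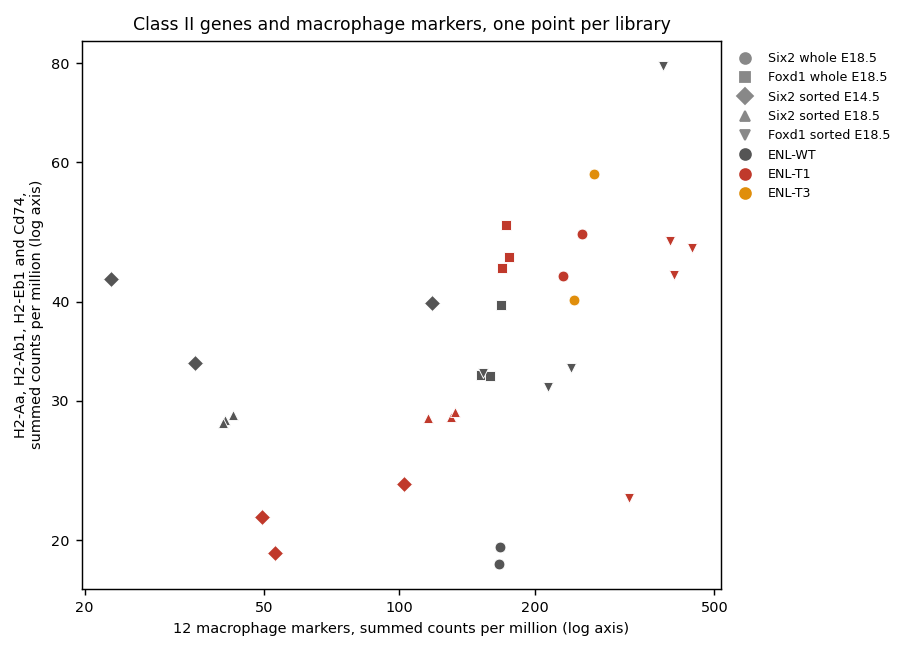
Summed CPM of H2-Aa, H2-Ab1, H2-Eb1 and Cd74 (y axis, log scale) against the summed CPM of 12 macrophage markers (x axis, log scale), 1 point per library, with shapes for the experiment and colors for ENL genotype. Six2 whole kidneys separate along both axes, sorted Six2 cells at E18.5 separate along the macrophage axis only, and sorted Six2 cells at E14.5 separate along the class II axis, with ENL-T1 at 19.3 to 23.6 CPM.

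Across all 32 libraries, with each of the 5 experiments centred on its own mean, the genes whose pattern was most like the mean log2 CPM of the 3 chain genes were listed by Pearson's r among 20452 genes. The members themselves gave r = 0.827 for Cd74, 0.687 for Ciita, 0.297 for H2-DMb1 and 0.285 for H2-DMa. Outside the pathway the first was Emp2, an epithelial membrane protein gene, at r = 0.781. It lies at chr16:10281749-10313968, 0.166 Mb from Ciita. Ccdc80, which encodes a secreted matrix protein, followed at 0.767, then the autophagy gene Atg14 at 0.76, the adhesion gene Nectin2 at 0.752 and the potassium channel gene Kcnh2 at 0.739. Sept9, Samd5, Glt28d2, Fam110b and Hpcal1 completed the first 10, at r of 0.713 to 0.726. The libraries share genotype, depth and preparation within an experiment, so these correlations are a description.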

How the data were processed

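Gene counts of 32 RNA-seq libraries were used. The authors deposited 4 tables of whole-number counts per gene, made per their methods and labels with bcl2fastq, HISAT2 on mm10 and HTSeq without regard to strand, so a gene and an overlapping antisense gene share counts. Whole kidneys were prepared with a poly(A) kit and sorted cells with a low-input amplification kit. Names came from GENCODE vM21 (55450 of 55806 IDs matched).

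The counts were analysed with edgeR 4.0.16 in R 4.3.3, separately per experiment, with filterByExpr (minimum count 10, minimum total 15), TMM scaling and the quasi-likelihood test. Changes with an adjusted p under 0.05 and over 1.5-fold were called (0.01 and 2-fold between stages, no fold threshold for interactions). Six2 sorted libraries of both stages shared 1 fit for development and stage. Interaction fits joined tables on their shared genes. Alternatives were DESeq2 1.42.0, edgeR's exact test, other scalings, no filter, a replicate block and leaving out each library. Levels are CPM, or CPM per kb of merged exons. Steps were tested on simulated counts.

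The members, marker lists and tests were chosen with earlier results of these data known. The marker lists were macrophage, pan-leukocyte, dendritic, B cell, T and NK cell, monocyte and neutrophil, endothelial, ureteric, red cell, nephron lineage and stromal genes, beside the pathway lists named in the report. The named genes were all members, list genes with an adjusted p under 0.05 in the comparison described or that define a cell type, and the 10 genes nearest to the chains by correlation. No 2 libraries of a group agreed within sampling noise (lowest chi-square per degree of freedom 1.36 over 33 pairs).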

Additional observations from a re-analysis of the deposited data

Results flagged for a closer look

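In the sorted Foxd1 cells 3 of 14 gene and group pairs had a library far from the others by Dixon's criterion, which chance gives in about 1 of 20 groups. ENL-WT replicate 1 stood at 19.7 CPM for H2-Ab1, with the next library at 9.92, and at 38.9 CPM for Cd74, with the next at 14.47. ENL-T1 replicate 1 stood at 8.90 CPM for Cd74, with the next at 22.3.

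The ENL-T1 effect differed between groups, by an interaction term in edgeR's quasi-likelihood test, for 4 genes. For H2-Ab1 the log2 fold change in sorted Six2 cells was higher at E18.5 than at E14.5 by 0.99 (adjusted p = 0.000618). For H2-DMb1 the log2 fold changes in sorted Six2 and sorted Foxd1 cells differed by -1.73, Six2 minus Foxd1 (adjusted p = 0.000161). In whole kidneys it was higher under Six2-Cre than under Foxd1-Cre by 1.29 for Cd74 (adjusted p = 0.000854) and by 1.15 for H2-Aa (adjusted p = 0.00615).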

How the results depend on the processing

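The 21 called member changes were recomputed 278 times under alternatives, and 271 values kept direction and call, 7 lost the call and 0 reversed. All 7 losses came from leaving out a library and are given with their genes above. The number of called members moved from 2 to 4 in sorted Six2 cells at E18.5 with edgeR's exact test and 4 with DESeq2, from 0 to 2 between stages without a fold threshold, and from 1 to 2 with DESeq2 for both the stage and the sorted lineage interaction. For the whole kidney lineage interaction it moved from 2 to 3 with DESeq2, with library size alone as scaling and without a filter. Without a filter it also moved from 5 to 6 in Six2-ENL-T3 whole kidney and from 2 to 3 in sorted Six2 cells at E18.5. Leaving out 1 library gave 1 to 2 called members in Foxd1 whole kidney, 1 to 2 for the stage interaction and 1 to 2 for the sorted lineage interaction. It gave 2 to 3 in Six2-ENL-T1 whole kidney, 4 to 5 in Six2-ENL-T3 whole kidney and 2 to 3 in sorted Six2 cells at E18.5.

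Changes of sign were confined to differences that were not called. In ENL-T3 against ENL-T1, Cd74 (0.0063) became -0.001 with DESeq2 and with RLE scaling, -0.0027 without a filter and -0.0135 with the replicate block, and leaving out 1 library gave -0.28 to 0.24 for Cd74, -0.24 to 0.38 for Ciita, -0.15 to 0.48 for H2-Eb1 and -0.48 to 0.15 for H2-Aa. With library size alone as scaling, the stage interaction of H2-DMa became 0.0379 and that of H2-DMb1 0.0304. Leaving out 1 library also gave -0.16 to 0.0352 for H2-DMa in ENL-T3 and -0.051 to 0.27 for Cd74 in sorted Six2 cells at E18.5. In sorted Foxd1 cells it gave -0.15 to 0.35 for H2-Ab1, -0.42 to 0.28 for H2-Eb1 and -0.26 to 0.48 for Cd74. For the stage interaction it gave -0.12 to 0.0425 for H2-DMa and -0.18 to 0.0712 for H2-DMb1, for the sorted lineage interaction -0.39 to 0.55 for H2-Aa, -0.0513 to 0.45 for H2-Ab1 and -0.32 to 0.41 for Cd74, and for the whole kidney lineage interaction -0.12 to 0.0319 for H2-DMa. The cause was not tested.

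Deviations of libraries with the same replicate number were weakly correlated (-0.0791 to 0.139), which with so few libraries cannot settle whether the numbers pair them. The highest correlation was between the replicate 3 libraries of sorted Six2 cells at E14.5. These also had the highest macrophage sums of their groups, 102 CPM in ENL-T1 and 118 CPM in ENL-WT. With the replicate block the counts of called members stayed at 3, 5 and 0 in the Six2 whole kidney comparisons, 5 and 2 in sorted Six2 cells, 0 in sorted Foxd1 cells and 2 in Foxd1 whole kidney, and H2-Ab1 in sorted Foxd1 cells became 0.0208. The sorted Foxd1 depth, with Ciita at 1 to 5 counts, limits what can be said there, as do 2 libraries a group in the Six2 whole kidneys.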
